A study of Oryza sativa with 6 samples.

Results

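The long stretches of rice chromosomes without any HMG-GFP peak were mapped from chromatin immunoprecipitation sequencing (ChIP-seq) of leaf blades. Overlapping peaks of the 3 deposited lists were merged into regions on chromosomes 1 to 12. The gaps between neighbouring regions that measured at least 20000 bp (20 kb) were kept. There were 350 such gaps among 60979, which is 0.574% of all gaps. They are called long gaps below. Without replicate 1 there were 730, without replicate 2 there were 457 and without replicate 3 there were 415. The gaps were chosen by the start and end positions of the peaks in these same lists, so their number, length and placement are given as descriptions with no test.

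The series deals, by its title, with OsHMGB1, a rice chromatin protein, in phosphate homeostasis and growth. The 6 samples were 3 immunoprecipitates (IP) pulled down with a GFP antibody and 3 matching inputs made without antibody. All came from HMG-GFP transgenic plants, which carry the protein fused to green fluorescent protein, and the seedlings were 28 d under growth conditions called HP, a term left unexplained. The labels name neither the promoter of the transgene nor the number of lines, and a GFP pull-down from plants lacking the transgene was not part of the set. Each IP replicate has its own peak list, and values of the inputs were not analysed here. The labels do not say whether replicates were separate plants, so the spread between lists may be technical. Total read counts of the libraries are not part of the lists, so library depth is unknown.

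Proteins of the high mobility group B family carry an HMG box that binds the minor groove of DNA and bends it, with little preference for sequence. They are abundant in the nucleus, move quickly between sites and help other factors to reach DNA. In plants they are found widely over chromatin. Rice chromosomes are gene-rich toward the ends of most arms, and the centromeres are built of satellite repeats and retrotransposons. Rice nuclear DNA also carries long insertions of organelle DNA, with known examples on chromosomes 10 and 12. A stretch without a peak is a stretch in which the caller reported no enrichment. From the lists, sequence that lacked enrichment and sequence to which few reads could be aligned cannot be told apart. No genome sequence of the lists' build was at hand, so the base composition, repeats and genes of the gaps were not analysed here.

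The long gaps were a small part of the peak-free sequence. They summed to 9.38 Mb, or 2.51% of the 373 Mb spanned by the lists. All gaps together summed to 224 Mb, or 60.1% of the span, so the long gaps held 4.18% of the bases without a peak. The median long gap was 23.6 kb and the mean 26.8 kb, against a median of 2.6 kb over all gaps. A gap of 7.8 kb marked the highest 10% of all gaps, and one of 17.2 kb the highest 1%.

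Most long gaps lay close to the threshold. Of the 350, 202 (57.7%) measured 20 to 25 kb, 79 measured 25 to 30 kb and 47 measured 30 to 40 kb. Another 12 measured 40 to 50 kb and 8 measured 50 to 100 kb, and 2 were longer than 100 kb. The number of gaps fell less steeply with each further 10 kb: there were 9.85 times as many of at least 10 kb as of at least 20 kb, 5.07 times as many of at least 20 kb as of at least 30 kb, and 2.20 times as many of at least 40 kb as of at least 50 kb. The threshold itself cut through a continuous range of lengths. Gaps of exactly 20 kb, the shortest kept, numbered 14, and gaps of 19.8 kb, the longest left out, numbered 19. The first of those kept ran from 2219401 to 2239400 on chromosome 4 and from 12287201 to 12307200 and 25656801 to 25676800 on chromosome 6. The first of those left out ran from 20542401 to 20562200 and 41251801 to 41271600 on chromosome 1 and from 5000001 to 5019800 on chromosome 2.

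**Figure D1:**
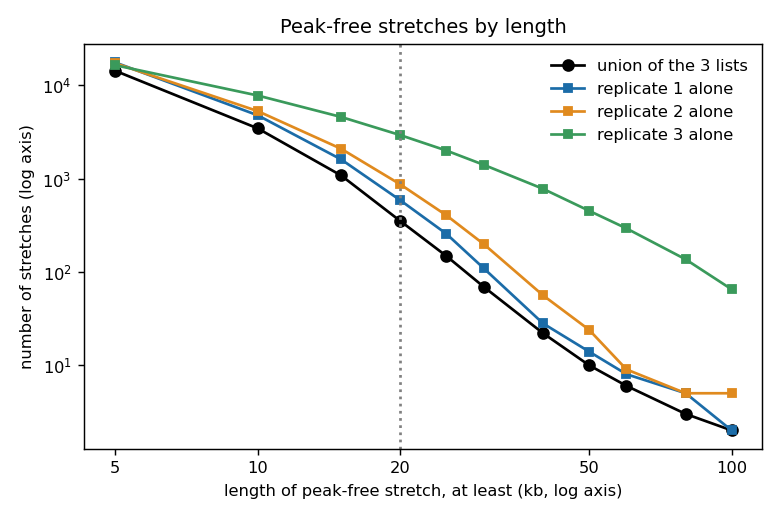
Number of peak-free stretches at or above each length, on log axes, for the union of the 3 lists (black) and for each list alone; the dotted line marks 20 kb. At 20 kb the union had 350 stretches, and replicates 1, 2 and 3 alone had 584, 865 and 2918.

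Single lists left more and longer stretches empty than the union did. Replicate 1 alone had 584 gaps of at least 20 kb (0.973% of its gaps), replicate 2 had 865 (1.52%) and replicate 3 had 2918 (7.04%). The mean over the lists was 1456 ± 1274 (SD, n = 3), a spread nearly as large as the mean. Together these gaps made up 15.6, 23.5 and 107 Mb of replicates 1, 2 and 3. The longest measured 145.6 kb in replicates 1 and 2 and 474.8 kb in replicate 3. Replicate 3 also had the fewest peaks on the 12 chromosomes, 41474, against 60035 in replicate 1 and 56812 in replicate 2, and it covered 21.6% of the span, against 31.7% and 32.1%. The union kept 60.3% of the bases that replicate 1 alone left in long gaps, 39.98% of those of replicate 2 and 8.75% of those of replicate 3.

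The borders of the long gaps coincided more often with peak edges of replicates 1 and 2 than with those of replicate 3. For each long gap, the peak-free stretch around it was measured in each list alone. In replicate 1 it was at most 10% longer than the union gap for 287 of 350 gaps (82.0%), in replicate 2 for 244 (69.7%) and in replicate 3 for 98 (28.0%). The median stretch was 25.4 kb in replicate 1, 26.4 kb in replicate 2 and 38.9 kb in replicate 3. A stretch at least 2 times as long as the union gap was seen for 3 gaps in replicate 1, 5 in replicate 2 and 106 (30.3%) in replicate 3. Of the 700 borders, 482 coincided with the edge of a replicate 1 peak, 445 with that of a replicate 2 peak and 287 with that of a replicate 3 peak. All 3 lists had the same edge, on their grid of 200 bp, at 142 borders (20.3%). For 11 gaps both borders were the same in all 3 lists. Replicate 3 had fewer peaks to supply an edge, 41474 against 60035 in replicate 1 and 56812 in replicate 2. The matching shares over all gaps are not given here. Whether these values set long gaps apart from other gaps was therefore not tested.

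The longest gaps were often bordered by regions that not every list held. The 12 longest lay on 8 chromosomes, 3 of them on chromosome 12, and together held 0.878 Mb, or 9.36% of all bases in long gaps. They stood at 10.5% to 88.3% of the length of their chromosome, so none was terminal. Positions are 1-based and in the authors' coordinates, of a genome build that the sources at hand do not name.

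The longest of all, 142 kb, ran from 10785601 to 10927600 on chromosome 10. The stretch without a peak was 145.6 kb in replicate 1, 145.6 kb in replicate 2 and 142 kb in replicate 3. The 3 lists thus left nearly the same stretch empty. Its left border was a region of 2 kb found in all 3 lists, with folds of 2.23, 2.03 and 1.45, and its right border was a peak of 400 bp in replicate 3 alone, with a fold of 2.66. The fold is the enrichment that the authors' caller gave each peak, a linear ratio.

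The second, 122 kb, ran from 9089401 to 9211400 on chromosome 4. It measured 132.8 kb in replicate 1, 122 kb in replicate 2 and 184.8 kb in replicate 3. Its centre lay within 1 Mb of the approximate centromere. Both bordering regions were weak: a replicate 2 peak with a fold of 1.22 on the left, and on the right a region of 8 kb with folds of 1.60 in replicate 1 and 1.196 in replicate 2. Replicate 3 had no peak in either of them.

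The third, 95.4 kb, ran from 11153001 to 11248400 on chromosome 8 and measured 95.6, 103.6 and 119.4 kb in replicates 1, 2 and 3. On its right stood a region of 1 kb whose fold was 4.15 in replicate 1 and 2.49 in replicate 2. That replicate 1 fold was above the upper quartile of its list, 3.65, so a long gap could begin beside a strong peak. On its left stood a peak of replicate 1 alone, with a fold of 1.75.

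The other 9 of the 12 longest measured 45.8 to 79.0 kb. On chromosome 1 a gap of 65.8 kb ran from 33509201 to 33575000 and was longer in every single list, at 96.6, 78.6 and 83.8 kb in replicates 1, 2 and 3. It was the last long gap of that chromosome. On chromosome 5 a gap of 64.4 kb from 3100601 to 3165000 measured 78.0, 71.6 and 74.4 kb in the single lists. A second on that chromosome, of 50.4 kb from 12623001 to 12673400, measured 50.4 kb in replicates 1 and 2 and 60.4 kb in replicate 3. The gap of 53.4 kb from 14236201 to 14289600 on chromosome 2 measured 67.0, 53.4 and 68.4 kb. The centres of this gap and of the gap of 50.4 kb on chromosome 5 also lay within 1 Mb of the approximate centromere. Of the 12 longest gaps, 4 lay within 2 Mb of it. A gap of 51.0 kb from 24277601 to 24328600 on chromosome 12 measured 51.0, 56.6 and 56.4 kb, and replicate 1 alone had the peaks on both sides, with folds of 4.76 and 2.50. On chromosome 9 a gap of 49.0 kb from 8975201 to 9024200 measured 49.2, 49.0 and 112.2 kb. On chromosome 8 a gap of 45.8 kb from 9240201 to 9286000, 1 of 2 gaps of this length, measured 45.8, 47.6 and 46.6 kb, and regions found in all 3 lists bordered it on both sides. The remaining pair stood close together on chromosome 12 and is described with the clusters.

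**Figure D2:**
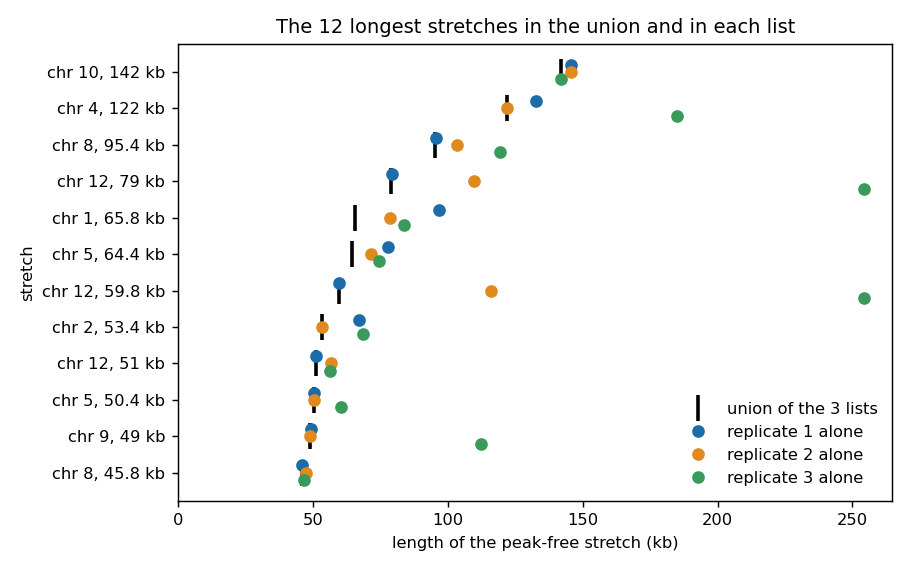
Length of the 12 longest peak-free stretches in the union of the lists (black bars) and of the stretch around each in replicates 1, 2 and 3 alone (points), in kb. The single lists are close to the union for the stretch of 142 kb on chromosome 10, while replicate 3 reaches 254.4 kb around the stretches of 79.0 and 59.8 kb on chromosome 12.

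Of the 24 regions at the borders of the 12 longest gaps, 11 held a peak of 1 replicate only, 8 of 2 replicates and 5 of all 3. In 7 of the 12, the stretch was longest in replicate 3. On the chromosomes without one of the 12, the longest gaps were 30.8 kb on chromosome 3 (23225001 to 23255800), 44.0 kb on chromosome 6 (23560401 to 23604400), 38.2 kb on chromosome 7 (6865201 to 6903400) and 42.4 kb on chromosome 11 (18271801 to 18314200). The one on chromosome 6 measured 44.6, 44.6 and 44.0 kb in replicates 1, 2 and 3, with regions found in all 3 lists on both sides. The one on chromosome 7 measured 82.8 kb in replicate 1, 38.4 kb in replicate 2 and 84.6 kb in replicate 3. A replicate 2 peak with a fold of 1.66, met in no other list, ended it on the right.

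Chromosomes differed in how often a gap was long. Chromosome 4 had the most, 45, followed by chromosome 12 with 43 and chromosome 11 with 37. Chromosome 3 had 18, chromosome 5 had 19, and chromosomes 1 and 7 had 21 each. Chromosomes 2, 8 and 9 had 31 each, chromosome 6 had 29 and chromosome 10 had 24. Per Mb, chromosome 12 had 1.56 long gaps and chromosome 1 had 0.485. As a share of its gaps, 1.02% were long on chromosome 12, 0.844% on chromosome 9 and 0.812% on chromosome 11, against 0.284% on chromosome 1, 0.286% on chromosome 3 and 0.574% over all chromosomes. Chromosomes 9 to 12 held 38.6% of the long gaps in 27.5% of the span and with 26.4% of all gaps. Chromosomes 1, 2 and 3 held 20% in 31.0% of the span and with 32.5% of all gaps. These groups do not follow the order of the shares: 0.811% of the gaps were long on chromosome 4, outside both, and 0.655% on chromosome 10. Chromosomes 12, 4 and 11 also had the fewest regions, with 153, 156 and 157 per Mb, and chromosome 10 had 158. Chromosomes 3 and 1 had the most, with 173 and 171 per Mb. Density varied far less between chromosomes than the share of gaps that were long.

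**Figure D3:**
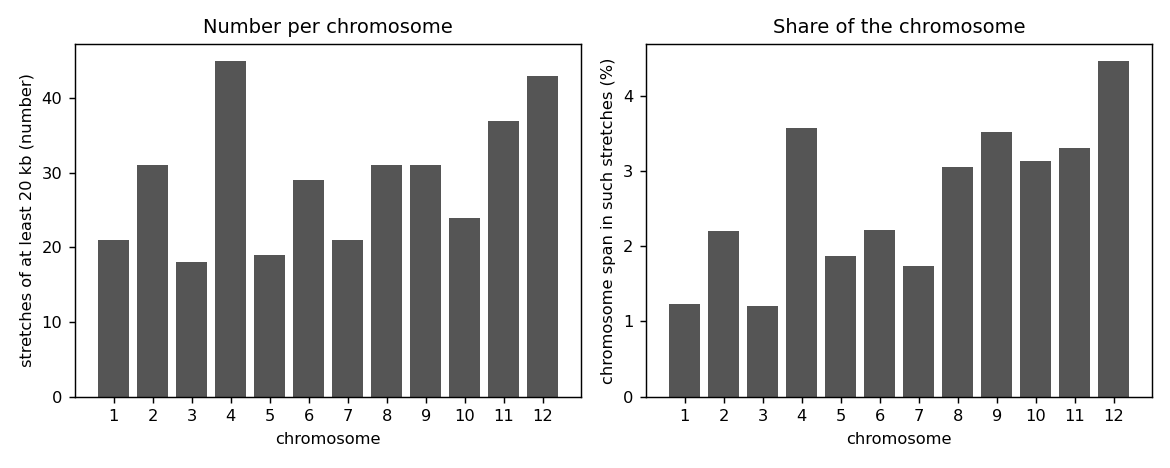
Number of peak-free stretches of at least 20 kb (left) and the share of the chromosome's spanned length inside them in percent (right), for chromosomes 1 to 12. Chromosomes 4 and 12 had 45 and 43, and the share was 4.46% on chromosome 12 and 1.20% on chromosome 3.

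Within several chromosomes the long gaps were unevenly spread. On chromosome 4, 41 of the 45 lay in the first 18 Mb, a stretch with the centromere at about 10 Mb. In that stretch they took up 6.38% of the sequence, and 1.65% of the gaps were long. In the rest of chromosome 4 there were 4, taking up 0.674%. From 18650601 to 32873200, 14.2 Mb, chromosome 4 had no long gap at all. Other long runs without any were the last 9.69 Mb of chromosome 1 from 33575001, 9.64 Mb of chromosome 7 from 17244401 to 26885800, 8.86 Mb of chromosome 3 from 5939001 to 14798000, and the last 11.04 Mb of chromosome 5 from 18914401. Chromosomes 10 and 12 had no such run longer than 2.64 and 2.48 Mb. On these 2 chromosomes long gaps were thus met along the whole length.

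Long gaps were nearer to the centromeres than gaps in general. The positions of the 12 centromeres were taken to the nearest Mb from general knowledge of the rice genome and not from the lists, so distances under 1 Mb mean little. The median distance from the centromere was 4.76 Mb for long gaps and 8.57 Mb for all gaps. It was smaller for long gaps on each of the 12 chromosomes, among them chromosome 2 with 2.98 Mb against 9.26 Mb and chromosome 10 with 5.91 Mb against 6.36 Mb. Within 2 Mb of a centromere stood 77 long gaps, or 22%, against 11.02% of all gaps. The average over all orders of the gaps within each chromosome, with the places of the gaps held fixed, was 40.4. Without replicate 1 there were 186 within 2 Mb, or 25.5% of the long gaps of the other 2 lists. Without replicate 2 there were 97 (21.2%) and without replicate 3 there were 86 (20.7%), both a smaller share than the 22% of all 3 lists. The matching shares of all gaps in each pair of lists are not given here. Within 5 Mb stood 178, or 50.9%, against 28.3% of all gaps.

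The excess was not the same on every chromosome. On chromosome 2, 12 of 31 long gaps lay within 2 Mb of the centromere (38.7%, against 8.74% of all gaps), and on chromosome 5 it was 7 of 19 (36.8%, against 11.02%). On chromosome 4 it was 12 of 45 (26.7%, against 9.23%), and on chromosome 11 it was 12 of 37 (32.4%, against 12.3%). Chromosomes 1, 3 and 7 had 1 each, a smaller share than that of all gaps. Chromosome 12, with the highest density of long gaps, had 6 of 43 there (13.95%, against 13.3%).

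Far from the centromere the share of long gaps was lower, though it did not fall at every step. It was 1.36% of the gaps at 0 to 1 Mb, a bin as fine as the rounding of the centromeres, 0.959% at 1 to 2 Mb, 0.791% at 2 to 3 Mb and 1.15% at 3 to 4 Mb. Beyond that it was 0.914% at 4 to 6 Mb, 0.624% at 6 to 8 Mb, 0.466% at 8 to 10 Mb, 0.265% at 10 to 15 Mb and 0.174% at 15 to 30 Mb. Gaps as such were more numerous away from the centromere, with 132 per Mb at 0 to 1 Mb and 176 per Mb at 15 to 30 Mb. Near the chromosome ends long gaps were somewhat fewer: 35 lay within 2 Mb of an end (10%), against 13.6% of all gaps and an average over all orders of 49.9.

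**Figure D4:**
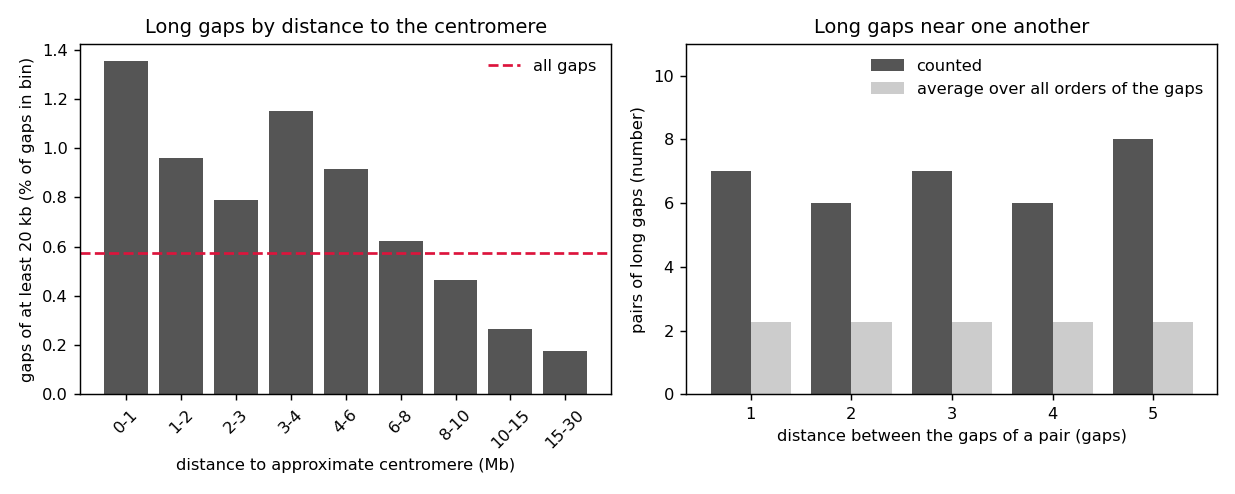
Left, share of gaps that are at least 20 kb long, in percent, by distance to the approximate centromere in Mb; the dashed line is the share over all gaps, 0.574%. Right, number of pairs of long gaps that stand 1 to 5 gaps apart (dark bars) beside the average over all orders of the gaps within each chromosome (light bars); the counts are 6 to 8 and the averages about 2.25.

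Long gaps stood near one another more often than under a changed order of the gaps. The lengths of the gaps on a chromosome were held fixed and their order varied, and the average over all orders was computed exactly. There were 7 pairs of long gaps with only 1 region between them, against an average of 2.25. Pairs 2, 3, 4 and 5 gaps apart numbered 6, 7, 6 and 8, each against an average of 2.25. All pairs up to 5 gaps apart numbered 34, which was 3.02 times the average of 11.3. Chromosome 12 had 10 of them and chromosome 2 had 8, against averages of 2.14 and 0.762. Chromosomes 1, 3 and 10 had none. The counts are small. Without replicate 1 the pairs with 1 region between them numbered 38, against an average of 10.8, and without replicate 2 they numbered 11, against 3.90. Without replicate 3 they numbered 7, against 3.12, and the ratio of 2.25 was below the 3.10 of all 3 lists.

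The neighbouring gaps were longer as well. The gap next to a long gap had a median of 3.4 kb, against 2.6 kb over all gaps, and 13.9% of these neighbours reached 10 kb, against 5.65% of all gaps. The median was 3.2 kb at 10 gaps away, 2.8 kb at 50 and 2.6 kb at 100. At 100 gaps away the median was thus that of all gaps, but 7.37% of the gaps there reached 10 kb, still above 5.65%. At 200 gaps away 5.19% did.

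Between consecutive long gaps on a chromosome the median distance was 472.8 kb, and 66 of 338 distances (19.5%) were under 100 kb. The shortest was 0.8 kb. When long gaps less than 50 kb apart were joined, 33 clusters held 73 of the 350 gaps, and 277 gaps stood alone. Chromosomes 4 and 12 had 6 clusters each, and chromosome 10, which has the longest gap, had none.

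The cluster with the most peak-free sequence was on chromosome 12 from 20450001 to 20707200. There 4 long gaps made up 198.4 kb of 257.2 kb (77.1%), with 5 regions between them. They included the gaps of 59.8 kb from 20501001 to 20560800 and of 79.0 kb from 20602601 to 20681600. Replicate 1 covered 14.9% of the cluster, replicate 2 covered 3.34% and replicate 3 covered 1.09%. Around both of these gaps replicate 3 alone left 254.4 kb without a peak, whereas the stretches were 59.8 and 79.4 kb in replicate 1 and 116.0 and 109.8 kb in replicate 2.

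The islands in that cluster were weak. A region of 14.2 kb from 20486801 to 20501000 had a fold of 1.07 in replicate 1, the lowest of all peaks of that list, a fold of 1.59 in replicate 3 and no peak in replicate 2. A region of 2.8 kb from 20681601 to 20684400 had folds of 1.34 and 1.27 in replicates 1 and 2 and no peak in replicate 3. Other islands between neighbouring long gaps had higher folds, such as one of 800 bp on chromosome 11, from 10691801 to 10692600, at 3.56, 2.28 and 2.04 in replicates 1, 2 and 3. The next clusters by peak-free sequence were on chromosome 2 from 14625401 to 14757600, with 4 long gaps in 132.2 kb, and on chromosome 9 from 8895801 to 9087000, with 3 in 191.2 kb.

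Counted in full windows of 1 Mb, 175 of 368 windows (47.6%) had no long gap, 105 had 1, 44 had 2 and 44 had 3 or more. The incomplete window at the end of each chromosome was left out, and with it the long gap from 31065801 to 31089200 on chromosome 6. The 44 windows with 3 or more held 156 of all 350 long gaps (44.6%). The mean was 0.948 long gaps per window, and the variance was 1.53 times the mean. The counts of windows, of clusters and of distances under 100 kb were not set beside an average over orders. Whether they exceed those of a changed order was therefore not tested. The most bases in long gaps were found at 9000001 to 10000000 on chromosome 4 (232 kb, or 23.2% of the window), 20000001 to 21000000 on chromosome 12 (198 kb) and 14000001 to 15000000 on chromosome 2 (190 kb, in 6 long gaps). Next came 10000001 to 11000000 on chromosome 10 (167 kb, most of it the longest gap) and 12000001 to 13000000 on chromosome 5 (161 kb). Peaks were not scarce in all of these windows. On chromosome 4 replicates 1 and 2 covered 34.4% and 31.6% of the window and replicate 3 covered 7.02%. On chromosome 5 they covered 32.8%, 31.6% and 4.16%.

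Windows with 3 or more long gaps were on average covered to 27.6%, 26.2% and 10.9% by replicates 1, 2 and 3, against 34.1%, 35.5% and 27.1% in windows without any. The gap between the kinds of window was widest in replicate 3. The same peak positions set both the coverage and the long gaps, so nothing is read from this beyond the size of the difference.

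A list that took no part in the choice gives a separate view of how empty such gaps are. For each replicate, gaps were found from the union of the other 2 lists, and the share of their bases under peaks of the left-out list was measured. Replicate 3 had peaks over 1.23% of the bases of the 415 long gaps of replicates 1 and 2, against 6.40% of all their gaps and 21.6% of the span. Replicate 2 covered 1.84% of the 457 long gaps of replicates 1 and 3, against 3.30% of all their gaps and 32.1% of the span. Replicate 1 went the other way and covered 7.32% of the 730 long gaps of replicates 2 and 3, against 5.26% of all their gaps and 31.7% of the span. The mean over the 3 was 3.46% ± 3.35 for long gaps and 4.99% ± 1.57 for all gaps (SD, n = 3). The means differed by less than either SD. These SDs ignore the pairing by left-out replicate, and the 3 values are not independent because the gap sets share lists. With 3 replicates an exact paired permutation test cannot reach 0.05, as its smallest two-sided p is 0.25, and none was run.

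Part of the bases filled by the left-out list lay at the borders. In the long gaps of replicates 1 and 2, replicate 3 covered 5.25% of the outermost 1 kb, 0.964% at 1 to 2 kb and 0.861% beyond 10 kb. In those of replicates 1 and 3, replicate 2 covered 4.66%, 2.49% and 1.24% at the same distances. In those of replicates 2 and 3, replicate 1 covered 7.59%, 6.66% and 7.12%, with little change from border to centre. At 4 kb or more from both borders, long gaps were covered to 7.54%, 1.49% and 0.855% by replicates 1, 2 and 3, and gaps of 10 to 20 kb to 6.99%, 1.55% and 1.37%. In replicates 1 and 2 the long gaps were thus filled about as much as the gaps just below the threshold.

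The peaks of a left-out list inside long gaps of the others are peaks that neither other list had, so they were set beside such peaks in shorter gaps. In replicate 1, 818 peaks inside long gaps had a median fold of 2.004, against 2.22 for 4375 peaks inside gaps under 20 kb. In replicate 2 the medians were 1.79 for 161 peaks in long gaps and 1.85 for 1877 in shorter ones. In replicate 3 the order was the other way, with 1.86 for 103 peaks in long gaps and 1.77 for 2477 in shorter ones. The lists thus had no common direction. All of these medians were below those of the whole lists, 2.84, 2.17 and 2.03 in replicates 1, 2 and 3, in long and in shorter gaps alike. Single peaks inside long gaps reached folds of 5.62, 3.52 and 4.08.

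**Figure D5:**
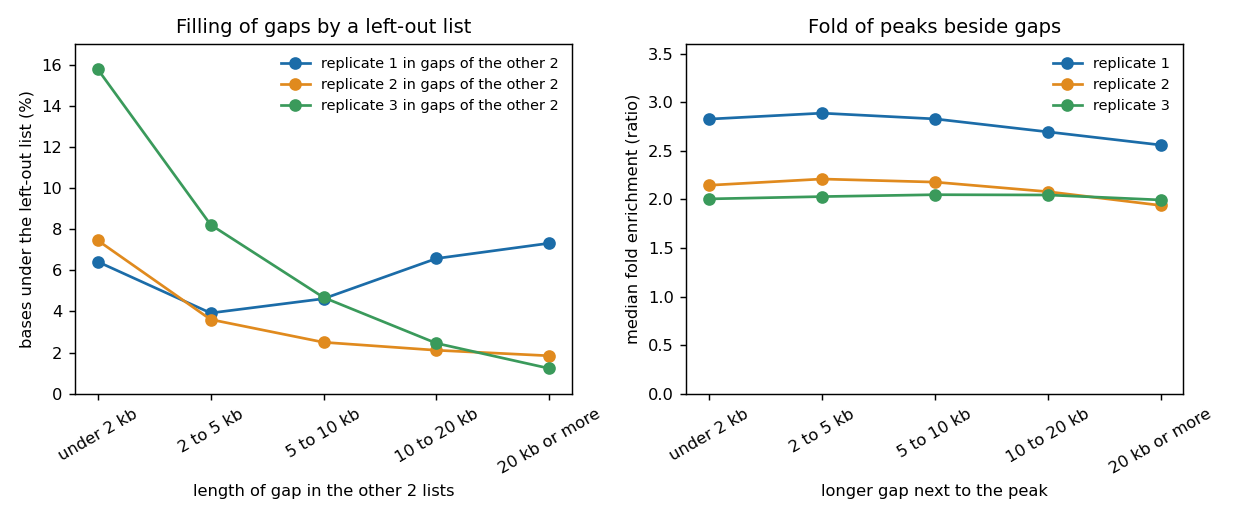
Left, share of bases of gaps in 2 lists that lie under peaks of the left-out list, in percent, by length of the gap. Right, median fold enrichment of peaks by the length of the longer gap next to their region, for each replicate. At 20 kb or more the left-out shares are 7.32%, 1.84% and 1.23% for replicates 1, 2 and 3, and the median folds 2.56, 1.94 and 1.99.

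Regions at the borders of long gaps recurred less often and were narrower than regions in general. Of the 693 regions beside a long gap, 43.3% held a peak of every replicate, against 58.7% of all 60991 regions, and 22.7% held a peak of 1 replicate, against 16.1%. Their median width was 1400 bp, against 1600 bp. The difference was mostly one of replicate 3, which had a peak in 49.6% of border regions and in 66.0% of all regions. For replicate 1 the shares were 88.9% and 89.995%, and for replicate 2 they were 82.1% and 86.5%. A region that 1 weak peak makes can end a gap, so the make-up of the borders is tied to the choice of the gaps.

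The fold was not used to choose the gaps. Peaks beside long gaps had a median fold of 2.56 in replicate 1, against 2.84 over all its peaks. In replicate 2 it was 1.94, against 2.17, and in replicate 3 it was 1.99, against 2.03. The interquartile range was wide, 2.004 to 3.27 beside long gaps in replicate 1, so the distributions overlapped largely. A fold of at least 2 was reached by 75.4%, 46.4% and 49.6% of the peaks beside long gaps in replicates 1, 2 and 3, against 83.0%, 59.8% and 52.8% of all peaks. All 3 lists differed in the same direction, by little in replicate 3.

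The lower fold was not limited to the border. Peaks 10 regions away from a long gap had median folds of 2.68, 2.05 and 2.004 in replicates 1, 2 and 3. At 50 regions away the medians were 2.49, 1.94 and 2.01, close to those at the border in all 3 lists. The long gaps thus lay in parts of the chromosomes where the peaks of replicates 1 and 2 had low folds over many regions.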

How the data were processed

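Peak lists of 3 IP replicates were used. MACS2 2.1.2, Bowtie2 2.4.1, Trimmomatic 0.33 and bcl2fastq 2.19 are the tools listed, without roles, per the submitters' processing notes. No source at hand gives the genome build, the read filters, the calling tool or the use of the inputs. Per the file headers, the lists hold a fold (a linear ratio), p-value, FDR and pileup for each peak. The deposited FDR served only for a stricter alternative, and the deposited p-value and pileup were not used. All starts and ends lie on a grid of 200 bp, and peaks of a list are at least 800 bp apart, which limits every gap length to steps of 200 bp. Caller thresholds decide where a gap ends, so stricter calling lengthens gaps.

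Peaks overlapping by at least 1 bp were merged; 50 gaps of 0 bp between touching regions were counted as gaps. The span is the last base under any peak. Named gaps are the 12 longest, the longest of each chromosome, those nearest the threshold, the 5 windows of 1 Mb with the most bases in long gaps, and the neighbouring long gaps with the most sequence. Members and lists of items were chosen with earlier results of these data known, and the clusters, the length classes, the distance bins, the single examples named beside these and the left-out comparison were chosen after values were seen. The gap finder was tested on simulated peaks, with all of 20 data sets matched. The average over orders was checked separately, against the mean over random orders of made-up gap lengths. Python 3.11.15, numpy 2.4.6, pandas 2.3.3 and matplotlib 3.10.9 were used.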

Additional observations from a re-analysis of the deposited data

Results flagged for a closer look

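Outside the 12 chromosomes, the comparisons left out the sequence named ChrUn, which held 6 peak-free stretches of at least 20 kb between its 24 regions. They summed to 486.6 kb, or 77.0% of its spanned 0.632 Mb, and the longest measured 220.4 kb, longer than any on the 12 chromosomes. ChrSy, with 106 regions over 0.592 Mb, had none. What these sequences are is not stated in the lists, and the signal was singled out because it stands in data that no comparison used.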

How the results depend on the processing

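The number of long gaps rests on the threshold and on every list. With a minimum of 10 kb, 30 kb and 50 kb, there were 3448, 69 and 10 gaps of 49.7, 2.84 and 0.783 Mb, with medians of 12800, 33600 and 65100 bp. Adjacent pairs then numbered 316, 1 and 0, and 642, 17 and 4 gaps lay within 2 Mb of a centromere (18.6%, 24.6% and 40%). Gaps between peaks with a fold of at least 2 numbered 1600 (49.2 Mb, 156 pairs, 407 near a centromere), and with an FDR of at most 1e-20 there were 890 (24.3 Mb, 42 pairs, 200 near). Gaps between regions held by at least 2 replicates numbered 958 (26.5 Mb, 58 pairs, 233 near), and by 3 replicates 2956 (111 Mb, median 29600 bp, 640 pairs, 623 near). Leaving out a replicate gave 415 to 730 gaps, 11.1 to 19.8 Mb, medians of 23600 to 24200 bp, 7 to 38 pairs and 86 to 186 gaps near a centromere. The highest of each came without replicate 1: 730 gaps, 19.8 Mb, 38 pairs and 186 near. Within 1 Mb there were 43 and within 3 Mb 105. Adjacent pairs were 1.54 to 3.51 times the average over orders in these settings, except for the minimum of 30 kb with 1 pair and that of 50 kb with none. Fewer or shorter peaks lengthen gaps by construction. Counting the stretch before the first region changed none of these 5 values, and could not, as the longest such stretch was 8000 bp, on chromosome 7. No paired analysis was possible because only the IP samples have lists. Unknown depth limits what an empty stretch means.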
